A study of Mus musculus with 2 samples.

Results

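The class 4 and class 7 semaphorins and their receptors were followed in thioglycolate-elicited peritoneal macrophages, as a set of 10 genes out of 15623 listed in at least 1 of 2 RNA-sequencing libraries. The set held 5 ligands (Sema4a, Sema4b, Sema4c, Sema4d and Sema7a) and 5 receptors (Plxnb1, Plxnb2, Plxnc1, Plxnd1 and Cd72). It was picked on the large fall of Sema4d in these same libraries, so its values are given as a description and without a test. Genes were found by their NCBI gene number, and all 10 were listed in both libraries.

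Both groups came from young adult wild type C57BL/6 mice that received 4% thioglycolate in the peritoneal cavity, an irritant that draws in macrophages. The cavity was washed out 4 to 5 days later, cells were left to adhere for 4 h, and the adherent macrophages were starved in medium with 0.5% serum. One group was left nontreated (NT) and the other received mouse IL-4, the cytokine that drives alternative (M2) polarization, for 6 h. Each group was 1 library, the labels do not say whether animals were pooled, and nothing below could be checked against the spread between animals or cultures. One label field names peritoneal macrophages and another names bone marrow as the tissue.

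The libraries held 11035641 (NT) and 11250099 (IL-4) expected counts, the estimated reads assigned to genes. All 8 macrophage markers examined were well above the floor of 3 counts, and their summed level was 14906 FPKM in NT and 14768.5 FPKM in IL-4 cells, where FPKM is a count scaled for transcript length and depth. Most of each sum was Lyz2 (11289.3 and 10811 FPKM) and Cd68 (3240 and 3465 FPKM). Of the 8 markers, Csf1r rose (log2 ratio 0.90) and Cd14 fell (log2 ratio -1.07). Since Sema4d and Cd72 are also made by lymphocytes, markers of other cells were read in the same way. The 6 B cell markers summed to 6.53 FPKM in NT and 5.78 FPKM in IL-4 cells, with Pax5 without an entry in the NT table and so taken as 0. The 5 T cell markers summed to 1.66 and 1.14 FPKM, and all had an entry in both tables. Cd4 fell from 15 to 7 counts, with an interval that included 0 (-2.66 to 0.25). The remaining lists, for NK cells, neutrophils, eosinophils, mast cells, dendritic cells and mesothelial cells or fibroblasts, summed to between 0.21 and 24.1 FPKM in NT and between 0 and 20.5 FPKM in IL-4 cells, with Gzma, S100a9, Ly6g, Retnlg and Epx without an entry in either table and so taken as 0. The highest sums were those of the mesothelial or fibroblast list, mostly Col1a1 (10.9 and 8.46 FPKM) and Col1a2 (10.5 and 9.71 FPKM). In NT cells both were above Cd72 (8.86 FPKM) and Sema4b (4.65 FPKM). Of these lists S100a8 fell from 35 to 21 counts, with an interval that included 0 (-1.62 to 0.06). Siglecf fell from 53 to 27 counts (-1.73 to -0.31). The part of these markers in the results was not tested. In RNA from a bulk sample, fewer cells of a type and less RNA per cell cannot be told apart.

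Semaphorins are a family of membrane-bound and secreted proteins first known as guidance cues for growing axons. Plexins are their main receptors, large transmembrane proteins whose intracellular part acts on small GTPases and so on the cytoskeleton and adhesion. In the immune system, class 4 semaphorins are transmembrane proteins that cells carry on their surface and can shed. They act through B-type plexins, through Plxnd1 and, for Sema4D, through the C-type lectin-like receptor CD72. Sema7A is held in the membrane by a lipid anchor and binds Plxnc1 and integrins.

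Upon IL-4 stimulation the ligands went in opposite directions. Sema4d, the most abundant member in NT cells, fell 9.0-fold, whereas Sema4b rose 4.99-fold. Among the receptors, Plxnb2 fell 2.17-fold and Cd72 rose 2.08-fold. A member is said here to have risen or fallen when the IL-4 level over the NT level gave a log2 ratio of 0.75 or more in either direction. That is the size the study sets for this comparison, beside limits on P value and false-discovery rate that were not applied here. The gene also had to have at least 20 expected counts over both libraries, a minimum that the study does not state. Of the 10 members, 8 had that many counts, of which 2 fell, 2 rose and 4 stayed within the fold. Among all 11653 genes with as many counts, 8.69% fell and 5.13% rose. The members were chosen with this contrast known, so nothing is read from the comparison of these shares. Brackets after a ratio are exact 95% intervals from the counts. They hold only counting error, because 1 library a group leaves no spread between replicates. Copies of a molecule made by PCR are counted as separate reads, which can make these intervals too narrow.

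**Figure D1:**
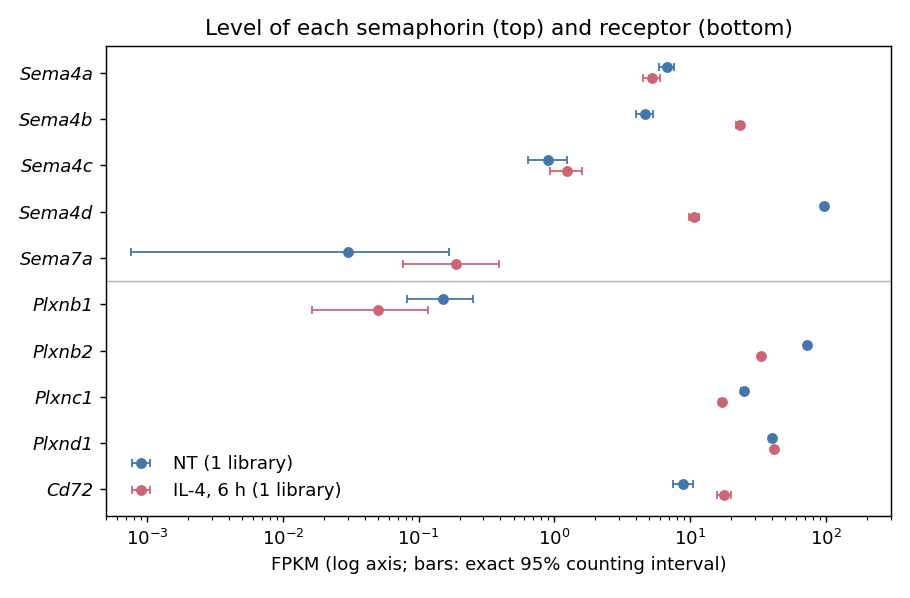
FPKM (log axis) of the 5 semaphorins and 5 receptors in the NT and IL-4 libraries, 1 point for each library with its exact 95% counting interval. Sema4d moved from 96.7 to 10.8 FPKM and Sema4b from 4.65 to 23.3 FPKM, while Plxnd1 stayed near 41 FPKM.

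The promoters of the 4 members past the fold are shown so that the letters near their starts can be read beside these values. Each is the 250 bases before the start that lies farthest upstream among the windows RefSeq gives (GRCm38.p6), 5′ to 3′ on the strand of the gene, with the capitals marking matches to the searched motifs on either strand. Sema4d has 3 such windows. The annotated genes of Sema4d, Plxnb2 and Cd72 reach farther upstream than the windows shown, to 51793678, 89182018 and 43455102, so these windows lie inside the genes. The gap is by far the longest for Sema4d, so its window need not be the promoter of its first start. The window of Sema4d lies at chr13:51756684-51756933 (minus strand), that of Sema4b at chr7:80186620-80186869 (plus strand), that of Plxnb2 at chr15:89180789-89181038 (minus strand) and that of Cd72 at chr4:43454627-43454876 (minus strand).
Sema4d: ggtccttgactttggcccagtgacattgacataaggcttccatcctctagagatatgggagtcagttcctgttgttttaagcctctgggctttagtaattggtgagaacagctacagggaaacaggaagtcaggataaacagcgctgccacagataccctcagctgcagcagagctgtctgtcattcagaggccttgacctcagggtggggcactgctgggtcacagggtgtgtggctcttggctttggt
Sema4b: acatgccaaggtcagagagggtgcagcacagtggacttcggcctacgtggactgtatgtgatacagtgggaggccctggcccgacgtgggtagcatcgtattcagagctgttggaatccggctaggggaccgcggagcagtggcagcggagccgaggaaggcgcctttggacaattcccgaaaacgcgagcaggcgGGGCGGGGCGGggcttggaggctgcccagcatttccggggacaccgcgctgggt
Plxnb2: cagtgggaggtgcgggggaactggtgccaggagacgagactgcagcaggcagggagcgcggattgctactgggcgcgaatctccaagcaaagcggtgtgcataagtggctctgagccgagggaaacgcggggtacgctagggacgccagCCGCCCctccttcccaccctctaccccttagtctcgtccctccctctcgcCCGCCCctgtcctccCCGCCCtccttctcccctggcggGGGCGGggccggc
Cd72: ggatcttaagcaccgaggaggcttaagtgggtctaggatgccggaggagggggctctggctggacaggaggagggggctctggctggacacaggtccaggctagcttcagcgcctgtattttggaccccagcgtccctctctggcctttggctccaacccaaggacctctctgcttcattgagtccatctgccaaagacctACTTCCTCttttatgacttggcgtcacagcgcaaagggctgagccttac

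Motifs searched were the PU.1 site GAGGAAGT, STAT sites in the forms TTCNNNNGAA and TTCNNNGAA, the AP-1 site TGANTCA and the GC box GGGCGG, with overlapping matches counted. The capitals in Cd72 are a PU.1 site on the opposite strand, those in Sema4b are 2 overlapping GC boxes, and those in Plxnb2 are 4 GC boxes. The Sema4d window shown held none of the motifs, but the AP-1 site and the GC box each had a match among its other windows. The bases upstream of the Sema4d window shown were not searched. Over all 18 windows of the 10 members, the STAT forms had no match, while they occurred in 5.85% and 7.02% of all 32851 windows of the same length. The PU.1 site occurred in 1 member window and 2.44% of all, the AP-1 site in 2 and 6.75%, and the GC box in 14 and 32.7%. A match is a description of letters, and no match says only that these letters are not in these windows.

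Sema4d (gene 20354, chromosome 13, 51685529 to 51793678, GRCm38) encodes a transmembrane semaphorin best known on T cells, where it costimulates B cells through CD72. Nontreated cells gave 4905 expected counts of it and IL-4 cells gave 555. Its level was 96.7 FPKM in NT cells, the 682nd highest of all genes, and 10.8 FPKM in IL-4 cells, where it was the 5139th. The log2 ratio was -3.17 (-3.30 to -3.04). This was the lowest ratio among 3998 genes with at least 1000 counts over both libraries and the 9th lowest among the 11653 genes with at least 20. Sema4d was chosen for this fall, so these places restate the choice, and it reached 1000 counts through the NT library. By its counts the gene was high in nontreated cells and was still well detected after IL-4.

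Sema4b (gene 20352, chromosome 7, 80186870 to 80226646) encodes a close relative of Sema4D with the same transmembrane layout. Its expected count was 204.41 in NT and 1042.75 in IL-4 cells, and its FPKM was 4.65 and 23.3. The log2 ratio was 2.32 (2.11 to 2.55), the 16th highest among the genes with at least 1000 counts. Sema4b reached that number through the IL-4 library, and among the 11653 genes with at least 20 counts it was the 99th highest. The intervals of the Sema4b levels in NT (4.03 to 5.32 FPKM) and IL-4 cells (21.9 to 24.7 FPKM) lay far apart.

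The remaining ligands moved little or were scarcely detected. Sema4a (gene 20351, chromosome 3, 88435959 to 88461182), a semaphorin of dendritic and T cells that costimulates T cells, had 241 counts in NT and 190 in IL-4 cells. Its levels were 6.73 and 5.22 FPKM, with a log2 ratio of -0.37 (-0.65 to -0.09), within the fold. Sema4c (gene 20353, chromosome 1, 36548639 to 36560699), a ligand of Plxnb2, had 38 and 53 counts and a log2 ratio of 0.45 (-0.18 to 1.09). The Sema4c interval included 0 and also ratios past the fold, so a change of this size was not detectable at this depth. Sema7a (gene 20361, chromosome 9, 57939596 to 57962865), the lipid-anchored ligand of Plxnc1, had 1 count in NT and 7 in IL-4 cells. The Sema7a ratio had an interval from -0.18 to 8.27 on the log2 scale, so its direction could not be told, and it stayed below the count minimum.

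The make-up of the class 4 transcripts follows in part from the fall that Sema4d was chosen for. The 6 class 4 genes, which include Sema4f and Sema4g, summed to 109 FPKM in NT and 40.5 FPKM in IL-4 cells. Sema4d made up 88.7% of that sum in NT cells and 26.5% in IL-4 cells. Sema4b made up 4.26% and 57.4%. With Sema4d most of the sum in NT cells, its fall alone raises the shares of the other genes. Sema4a went from 6.17% to 12.9% of the sum while its level went from 6.73 to 5.22 FPKM. Taken as shares of the reads of the class, with exact Clopper-Pearson 95% intervals, Sema4d went from 91.0% (90.2 to 91.8) to 30.1% (28.0 to 32.2). The share of Sema4b went from 3.79% (3.29 to 4.33) to 56.6% (54.3 to 58.8). Per unit length there were 20.8 Sema4d transcripts for each Sema4b transcript in NT cells and 0.462 in IL-4 cells. Sema4f had 0 counts in NT and 2.75 in IL-4 cells, and Sema4g had 1 and 0, so both were near or below the floor of 3 counts.

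**Figure D2:**
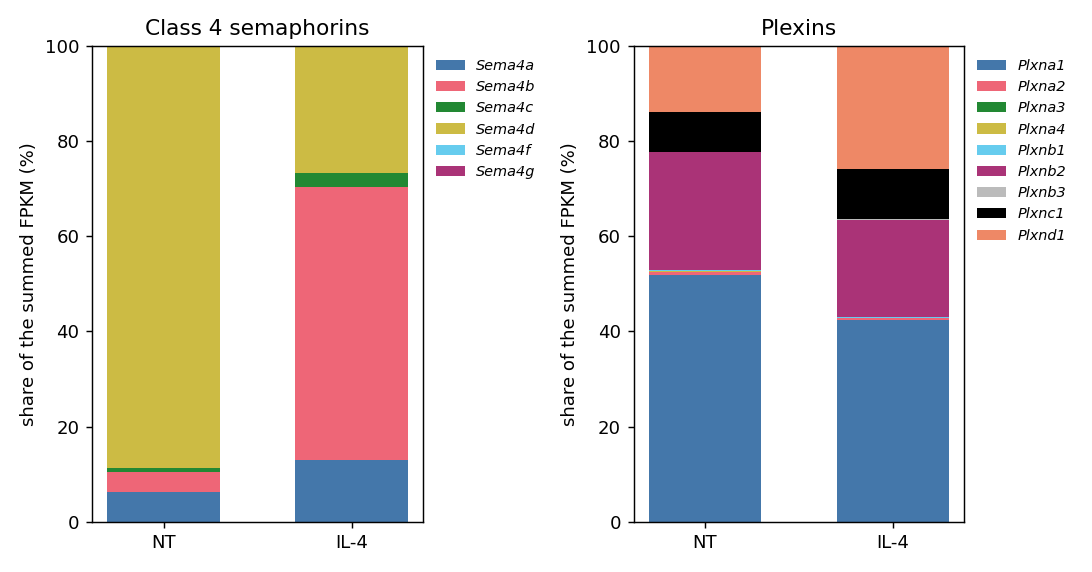
Share (%) of each gene in the summed FPKM of the 6 class 4 semaphorins (left) and of the 9 plexins (right), for the NT and IL-4 libraries. Sema4d fills 88.7% of the NT bar and 26.5% of the IL-4 bar, where Sema4b fills 57.4%, while Plxna1 is the largest plexin in both (51.8% and 42.3%).

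Plxnb2 (gene 140570, chromosome 15, 89155546 to 89182018) encodes the B-type plexin that binds Sema4C, Sema4D and Sema4A. It was the most abundant receptor of the set in NT cells, with 5263 counts and 72.5 FPKM. In IL-4 cells it had 2474 counts and 33.4 FPKM. The log2 ratio was -1.12 (-1.19 to -1.05), the 76th lowest of the genes with at least 1000 counts. Among the 11653 genes with at least 20 counts it was the 399th lowest. Ligand and receptor thus fell together but by different amounts, since Sema4d was 1.33 times as abundant as Plxnb2 per unit length in NT cells and 0.322 times as abundant in IL-4 cells.

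Plxnb1 (gene 235611, chromosome 9, 109093849 to 109119915), the high-affinity receptor of Sema4D outside the immune system, was close to absent. It had 14 counts in NT and 5 in IL-4 cells, or 0.15 and 0.05 FPKM. The interval of its log2 ratio ran from -3.34 to 0.04, and the gene did not reach the count minimum. Of the B-type plexins, only Plxnb2 was therefore read at depth in these macrophages, because Plxnb3 had 9 and 17 counts.

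Cd72 (gene 12517, chromosome 4, 43447724 to 43455102) encodes the inhibitory Sema4D receptor of B cells and myeloid cells, which recruits the phosphatase Ptpn6 through its cytoplasmic tail. It had 135 counts in NT and 287 in IL-4 cells, and 8.86 and 17.9 FPKM. The log2 ratio was 1.06 (0.76 to 1.37), an interval that lay just past the fold. Less the median of genes of like length, described below, it was 0.90 (0.61 to 1.21), an interval that reached within the fold. The B cell markers summed to 107 counts in NT and 98 in IL-4 cells, so they did not rise with Cd72. Tesk1, a kinase gene on the opposite strand, overlaps Cd72 by 1603 bases and had 1288 and 1332 counts. Whether the library kit kept the strand is not stated, so reads of the shared stretch may be divided between these genes. The length RSEM assigned to Cd72, weighted over its 4 listed transcripts, was 1391.89 bases in NT and 1437.16 bases in IL-4 cells, whereas that of Sema4d was nearly the same in both (4548.94 and 4539.68 bases).

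The other receptors stayed within the fold. Plxnc1 (gene 54712, chromosome 10, 94790866 to 94945015), the plexin that binds Sema7A, had 1959 and 1384 counts, or 24.8 and 17.2 FPKM. Its log2 ratio was -0.53 (-0.63 to -0.43). Plxnd1 (gene 67784, chromosome 6, 115954811 to 115995339), a plexin shared by Sema4A and the secreted Sema3E, had 3116 and 3300 counts and levels of 40.3 and 41.9 FPKM. Its log2 ratio was 0.05 (-0.02 to 0.13). Plxnd1 thereby took the first place in the set after IL-4, with Plxnb2 at 0.797 of it in IL-4 cells against 1.80 times in NT cells.

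By FPKM the order in NT cells was Sema4d, Plxnb2, Plxnd1, Plxnc1, Cd72, Sema4a, Sema4b, Sema4c, Plxnb1 and Sema7a. In IL-4 cells it was Plxnd1, Plxnb2, Sema4b, Cd72, Plxnc1, Sema4d, Sema4a, Sema4c, Sema7a and Plxnb1. Counting intervals of neighbours in these orders overlapped for Cd72 and Sema4a in NT cells, for Cd72 and Plxnc1 in IL-4 cells, and for Plxnb1 and Sema7a in both. Sema4d went from the first to the sixth place and Sema4b from the seventh to the third.

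**Figure D3:**
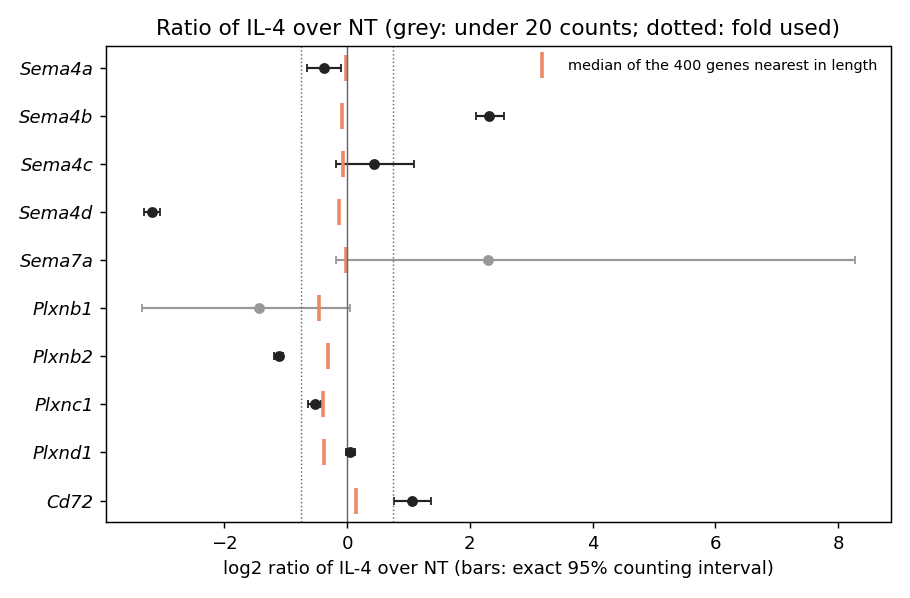
Log2 ratio of IL-4 over NT for each member with its exact 95% counting interval, 1 library a group. Dotted lines mark 0.75 in either direction, grey points are the genes under 20 counts (Sema7a and Plxnb1), and orange ticks mark the median among 400 genes of like transcript length, which is -0.31 for Plxnb2 and -0.13 for Sema4d.

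Transcript length moved with the ratio across all genes, and plexin transcripts are long. Of 1207 genes of at least 6000 bases with at least 20 counts, 24.7% fell and the median log2 ratio was -0.43, against -0.02 for all genes. The 400 genes nearest in length to Plxnb2 had a median of -0.31, and the Plxnb2 ratio less that median was -0.80 (-0.87 to -0.74), still past the fold as a point value. The same subtraction left Plxnc1 at -0.14 (-0.24 to -0.04) and put Plxnd1 at 0.43 (0.36 to 0.50). Sema4d came to -3.04, Sema4b to 2.41 and Cd72 to 0.90. The part of length in these ratios was not tested, and with 1 library a group it cannot be told apart from the treatment.

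**Figure D4:**
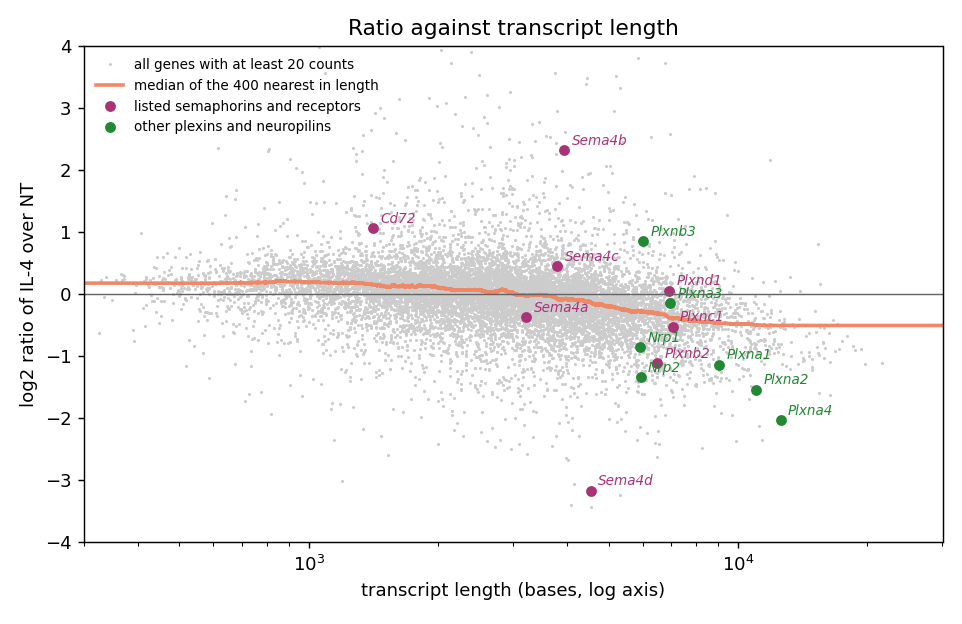
Log2 ratio of IL-4 over NT against transcript length in bases (log axis) for genes with at least 20 counts (grey; 54 lie outside the axes), with the median of the 400 genes nearest in length as a line. Sema4d (-3.17) and Sema4b (2.32) lie far below and above the line, while Plxnc1 (-0.53) lies close to it.

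To place these genes in their pathway, 53 further genes were read from a list of semaphorins, receptors and signalling partners. Of these, 38 had at least 20 counts, of which 10 fell, 1 rose and 27 stayed within the fold, where 8.69% of all genes with as many counts fell and 5.13% rose. The median log2 ratio of the 38 was -0.27, beside -0.02 for all genes with as many counts. With the length median subtracted, 7 of the 38 fell and 2 rose, and 781 of all 11653 genes fell and 595 rose.

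The other plexins and the neuropilins, the co-receptors of secreted semaphorins, held 5 of the 10 falls, and of these 7 genes 5 fell and 1 rose. Among all genes 8.69% fell, and among those of at least 6000 bases, the length of the 5 plexins here, 24.7% fell. With the length median subtracted, 3 of the 7 fell and 1 rose. Plxna1, an A-type plexin that pairs with Trem2 and Tyrobp in myeloid cells, was the most abundant plexin in both libraries. It had 15306 counts in NT and 7095 in IL-4 cells, or 151 and 68.7 FPKM, with a log2 ratio of -1.14 (-1.18 to -1.10). Less the length median the ratio of Plxna1 was -0.67, within the fold. Plxna2 fell by 1.54 and Plxna4 by 2.03 on the log2 scale, from 241 to 84 and from 110 to 27 counts, and both stayed past the fold less the length median (-1.05 and -1.53). Nrp1 had a ratio of -0.86 (-0.94 to -0.77) and levels of 45.8 and 25.2 FPKM, which became -0.58 less the length median. Nrp2 had a ratio of -1.34 (-1.45 to -1.23) and levels of 37.4 and 14.9 FPKM. Plxnb3, the gene that rose, had 9 and 17 counts and an interval that included 0 (-0.36 to 2.24).

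The 9 plexins summed to 292 FPKM in NT and 162 FPKM in IL-4 cells. Plxna1 made up 51.8% and 42.3% of these sums, Plxnb2 24.8% and 20.5%, and Plxnd1 13.8% and 25.8%. Plxnd1 thus gained share at a level that hardly moved.

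**Figure D5:**
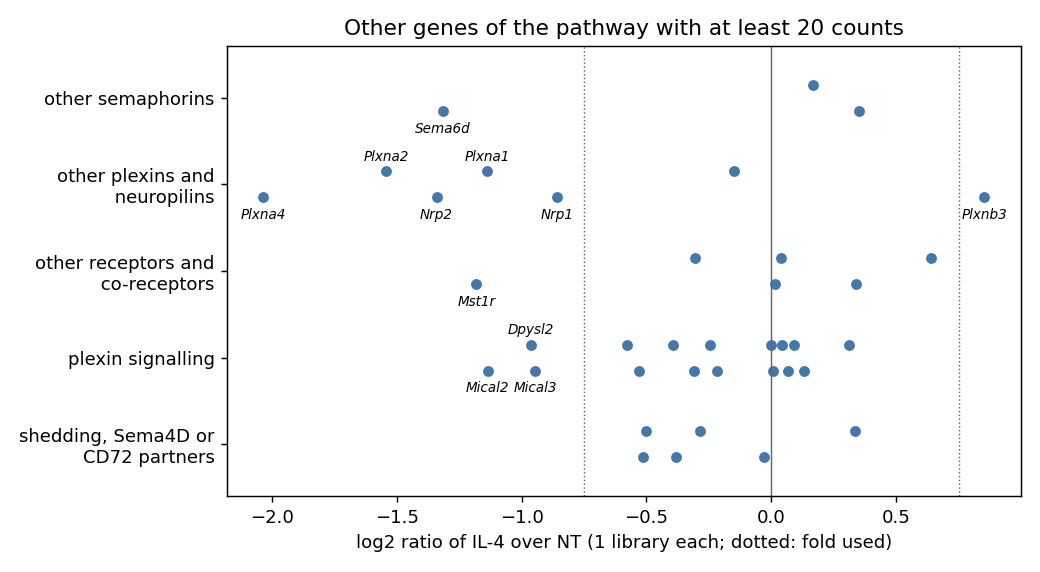
Log2 ratio of IL-4 over NT for the 38 further pathway genes with at least 20 counts, by sub-list, 1 point for each gene, with dotted lines at 0.75 in either direction. The 5 plexins and neuropilins left of the lower dotted line are Plxna4, Plxna2, Nrp2, Plxna1 and Nrp1, and the shedding enzymes and partners all lie between the dotted lines.

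Among the other semaphorins, 12 of 15 were under 20 counts. The most abundant, Sema6b, had 2.92 FPKM in NT and 3.27 FPKM in IL-4 cells. Sema3a had 0.36 and 0.46 FPKM, and Sema6d, a ligand of Plxna1, fell from 18.42 to 7.26 counts (log2 ratio -1.31, -2.89 to -0.06). The 15 genes together summed to 4.07 FPKM in NT and 4.42 FPKM in IL-4 cells, near the level of Sema4b in NT cells and below that of Sema4d in both.

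Of the other receptors and co-receptors, 6 of 8 had enough counts, of which 1 fell and none rose, beside 8.69% and 5.13% of all genes. With the length median subtracted, 1 fell and 1 rose, the latter Itga1 with 8 and 13 counts. The gene that fell was Mst1r, a receptor tyrosine kinase that couples to B-type plexins, with 74 and 33 counts and a log2 ratio of -1.18 (-1.83 to -0.58). Tyrobp and Trem2, the adaptor and receptor that Plxna1 associates with, were the most abundant of the list. Tyrobp had 1455 and 1177 FPKM (log2 ratio -0.30) and Trem2 had 680 and 688 FPKM (log2 ratio 0.02).

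Of 17 genes of plexin signalling, 16 had enough counts, of which 3 fell and none rose, beside 8.69% and 5.13% of all genes. With the length median subtracted, 2 fell. The 3 genes were Mical2 and Mical3, of a family that oxidizes actin, and Dpysl2, a microtubule-binding mediator of semaphorin signals. Their log2 ratios were -1.13 for Mical2, -0.95 for Mical3 and -0.96 for Dpysl2. Mical3 was at -0.47 less the length median. The GTPases Rhoa and Rac1 were the most abundant of these genes and hardly differed, with log2 ratios of 0.01 (-0.04 to 0.05) and 0.00 (-0.06 to 0.05).

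None of the 6 shedding enzymes and partners fell or rose past the fold, beside 8.69% and 5.13% of all genes. Grb2, an adaptor that binds the CD72 tail, had 138 and 135 FPKM, and Ptpn6, the phosphatase that CD72 recruits, had 113 and 79.2 FPKM with a log2 ratio of -0.51 (-0.60 to -0.43). Their ratios ran from -0.51 to 0.34.

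No gene with at least 1000 counts over both libraries fell further than Sema4d, which restates the choice of Sema4d for its fall. Genes that fall this far reach that number mostly through the NT library, as Dio2 did with 1075 counts in NT and 207 in IL-4 cells. The 5 genes nearest to it in log2 ratio, among genes with that many counts, were Dio2 (-2.40), Clec4e (-2.22), Clec4d (-2.18), Clec12a (-2.09) and Tlr13 (-2.05). Dio2 encodes an iodothyronine deiodinase, Clec4e, Clec4d and Clec12a encode C-type lectin receptors of myeloid cells, and Tlr13 encodes an endosomal Toll-like receptor. Likeness here rests on 1 ratio from 2 libraries.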

How the data were processed

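RNA from each group was extracted with a spin-column kit, and HiSeq libraries were made and read by a sequencing company. Per the study's methods and the submitters' processing notes, reads were mapped to GRCm38/mm10 with Bowtie and genes were quantified with RSEM (versions not given in the sources used here). The deposited tables hold, per the file headers, an RSEM expected count for each gene, an FPKM value scaled by the authors for length and depth, and a transcript-weighted length in bases. A gene absent from a table was set to 0. RefSeq gene numbers gave symbols for 15587 of 15623 genes.

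Log2 ratios used expected counts scaled to the library totals with 0.5 count added. Exact 95% intervals came from counts rounded to whole numbers (Clopper-Pearson for shares and ratios, Poisson for levels). With 1 library a group, no test was run. Genes with at least 20 counts over both libraries and a log2 ratio of 0.75 or more in either direction are said to have risen or fallen. The length median is that of the 400 genes nearest in length with at least 200 counts. Totals give a floor of 3 counts, or 0.272 CPM (NT) and 0.267 CPM (IL-4).

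The members, gene lists and rules were chosen with earlier results of these data known. Named were all members, pathway genes past the fold, the 2 most abundant genes of each of 5 sub-lists by FPKM, and the 5 genes nearest to Sema4d in ratio. Others are named for an overlap with a member (Tesk1), to complete the class 4 genes (Sema4f and Sema4g), as a marker, or in passing. Promoters are from RefSeq and overlaps from GENCODE release M21, both GRCm38. Scaling alternatives used edgeR 4.0.16 and DESeq2 1.42.0 factors with R 4.3.3, and the rest Python 3.11.15, scipy 1.17.1 and pandas 2.3.3. The ratio and interval code was tested on simulated data.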

Additional observations from a re-analysis of the deposited data

How the results depend on the processing

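No paired analysis was possible because NT and IL-4 were a single library each. Another 10 settings of scaling, added constant, length, filter and fold were tried. The 2 falls and 2 rises among the members were the same in number under 9 of them, and without a filter on counts, which adds Plxnb1 and Sema7a, the numbers were 3 and 3. Of 60 member ratios under 6 alternatives, none that was past the fold changed sign, 55 stayed inside their counting interval and 5 left it. The Sema4d ratio ran from -3.19 to -3.04, the latter with the length median subtracted. That subtraction also moved Plxnb2 to -0.80, Plxnc1 to -0.14 and Plxnd1 to 0.43, and FPKM with 1 added gave Sema4b 2.10. The 3 other scalings shifted all ratios by between -0.02 and 0.04.

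The pathway list (10 lower, 1 higher) gave 4 and 0 with FPKM plus 1, 6 and 0 at 200 counts or more, 0 higher with FPKM plus 0.1 or at a log2 ratio of 1, 2 higher at a fold of 1.5 or with the length median subtracted, and 6 higher without a filter. All genes (1013 lower, 598 higher) gave 389 and 370 with FPKM plus 1, 2608 and 1697 without a filter, 492 and 303 at 200 counts or more, 1528 and 901 at a fold of 1.5, and 511 lower at a log2 ratio of 1. An added constant shrinks ratios of low genes, and a filter or a fold changes which genes can pass. Depth limits Sema4c, Sema7a, Plxnb1 and Plxnb3, whose intervals include 0.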
